A study of Mus musculus with 10 samples.

Results

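The Irf1 and Irf8 loci were followed through lists of binding sites made by chromatin immunoprecipitation and sequencing (ChIP-seq) in mouse macrophages. The loci were 2 windows set by position on the mouse build mm9. The Irf1 window ran from 53540000 to 53640000 on chromosome 11, a length of 100 kb, and the Irf8 window from 123200000 to 123370000 on chromosome 8, a length of 170 kb. Every region of the 9 ChIP lists that overlapped a window was taken, which gave 17 of 114312 regions, with 8 at Irf1 and 9 at Irf8. No region of the input list, the DNA control, lay in either window. The deposited lists hold positions without gene names, so the names Irf1 and Irf8 rest on the windows.

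Bone marrow from C57BL/6J mice was cultured into macrophages, which were treated with the synthetic glucocorticoid dexamethasone (Dex), with lipopolysaccharide (LPS, a bacterial cell wall component sensed by Toll-like receptor 4), or with both. RelA, the p65 subunit of NF-κB, was precipitated from cells given Dex 3 h before 0, 3 or 8 h of LPS, from cells given Dex late in 8 h of LPS at an hour the labels do not state, and from cells with 0, 3 or 8 h of LPS and no Dex. The glucocorticoid receptor (GR) was precipitated, after an added protein cross-linking step, from cells with LPS and Dex and from cells with Dex, with no times in the labels, and input DNA came from untreated cells. Conditions follow the labels. The deposited name of every RelA list bears 3 h, those labelled 0 and 8 h of LPS included. The list with late Dex bears 3, 3 and 5 h in its name. The labels do not say what each of these hours stands for. Each condition had 1 library, so no spread between replicates is known and no test between conditions was made. The library depths are not given in the sources used here, and the lists were of unequal length, at 43, 33, 15 and 225 regions outside input for RelA with Dex given first (0, 3 and 8 h of LPS) or late, 47, 4972 and 1878 for RelA without Dex at 0, 3 and 8 h, and 51358 and 54875 for GR with LPS and Dex and with Dex.

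Interferon regulatory factors are transcription factors that share a DNA-binding domain and control interferon-stimulated and inflammatory genes. Irf1 is induced by interferon-γ and by inflammatory stimuli, the second in part through NF-κB acting at its promoter, and in macrophages it supports genes such as Nos2 and Il12b. Irf8 is a lineage factor of monocytes, macrophages and dendritic cells that binds DNA with the ETS factor PU.1, and enhancers far from the gene are known to drive it in mouse myeloid cells. RelA is carried into the nucleus after LPS and binds κB sites, while GR, once bound by a glucocorticoid, binds its own DNA element or sits at sites held by other factors.

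The promoters of both genes are shown because they carry the binding letters through which Irf1 and Irf8 are known to respond to inflammatory signals. Each sequence is the 250 bases before the most upstream start that RefSeq gives on the build GRCm38.p6, on the forward strand, at chr11:53769764-53770013 for Irf1 and chr8:120736108-120736357 for Irf8. These positions are not comparable with the mm9 positions of the regions, and whether a region covers a promoter, an exon or an intron was not determined. Capitals mark every match, on either strand, to the κB consensus bound by NF-κB or to TTCNNNGAA, the GAS element of interferon-γ-responsive genes.
Irf1: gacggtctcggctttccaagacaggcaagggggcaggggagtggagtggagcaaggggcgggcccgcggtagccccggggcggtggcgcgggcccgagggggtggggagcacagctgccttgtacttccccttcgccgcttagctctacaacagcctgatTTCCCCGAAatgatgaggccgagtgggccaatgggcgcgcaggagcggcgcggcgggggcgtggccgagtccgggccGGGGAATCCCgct
Irf8: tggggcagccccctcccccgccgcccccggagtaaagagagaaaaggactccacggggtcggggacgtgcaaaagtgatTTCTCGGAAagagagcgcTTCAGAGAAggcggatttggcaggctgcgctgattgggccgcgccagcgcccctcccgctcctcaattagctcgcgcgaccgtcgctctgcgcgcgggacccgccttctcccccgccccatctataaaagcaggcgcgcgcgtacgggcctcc
The Irf1 promoter held 1 κB match, GGGGAATCCC, whose first base lay 13 bases before the start, and 1 GAS match, TTCCCCGAA, at 90 bases. The Irf8 promoter held no κB match and 2 GAS matches, TTCTCGGAA and TTCAGAGAA, at 171 and 153 bases. No 2 of these matches overlapped. Among the 32851 promoters of that table, cut to the same 250 bases, 5.00% held a κB match and 7.02% a GAS match. The motifs were chosen after these sequences had been seen, so the shares are no test of the matches. The letters ACANNNTGT, the core of the GR element, the core of the interferon-stimulated response element and a joint ETS and IRF element had no match in either stretch of 250 bases, on either strand, and 5.84%, 2.98% and 2.30% of all promoters held them. For each gene the 250 bases before its other listed start were also scanned, and held no match to any of these motifs. In that annotation the nearest protein-coding neighbours of Irf1 were Il5 before it and Slc22a5 after it, and those of Irf8 were Cox4i1 and Foxf1.

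RelA was found at Irf1 after 3 h of LPS and in no other RelA library. The 3 h list held 7 regions in the window, spread over 58.1 kb and covering 3589 bp, and the lists at 0 h and 8 h without Dex, at 0, 3 and 8 h after Dex pretreatment, and at 8 h with late Dex held none. The strongest of the 7 lay at 53576091 to 53576903 on chromosome 11, with a width of 812 bp, a highest tag density of 44.6 and an authors' score of 31.2. The highest tag density is the authors' peak height of a region, on a scale whose normalisation is not stated, and the score is their z-score for the region. A second region, at 53576976 to 53577865, began 73 bp beyond the first and had a density of 26.9 and a score of 22.2. Another, at 53574736 to 53575331, ended 760 bp before the first and had a density of 18.7 and a score of 11.9. These 3 neighbours therefore formed a close group with the highest density in its middle.

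The other 4 Irf1 regions were spaced out on the side of higher coordinates. They lay at 53583288 to 53583603 with a density of 17.7, 53586399 to 53586651 with 10.7, 53593120 to 53593392 with 16.4, and 53632372 to 53632826 with 18.5. The first 3 of them were narrow, at 315, 252 and 272 bp, against a median of 538 bp in the whole 3 h list, and the last was 454 bp wide. Counting the GR region that lies among them, the gaps between neighbours on this side ran from 2.80 to 35.2 kb. Within the 3 h list the 7 Irf1 regions spanned most of the range of density, from the 6.58th to the 93.4th percentile. The strongest was followed by its neighbour at 53576976, at the 78.1st percentile by density and the 82.9th by score. The others stood at the 50.6th percentile of density or below.

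RelA at Irf8 was sparser and likewise seen at 3 h of LPS alone among the RelA libraries. The 3 h list held 2 regions, at 123209884 to 123210515 on chromosome 8 with a density of 22.6 and a score of 17.3, and at 123284072 to 123284551 with a density of 13.5 and a score of 10.1. They stood at the 67.1st and 18.4th percentile of density in that list. Both were of ordinary width, 631 and 479 bp.

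**Figure D1:**
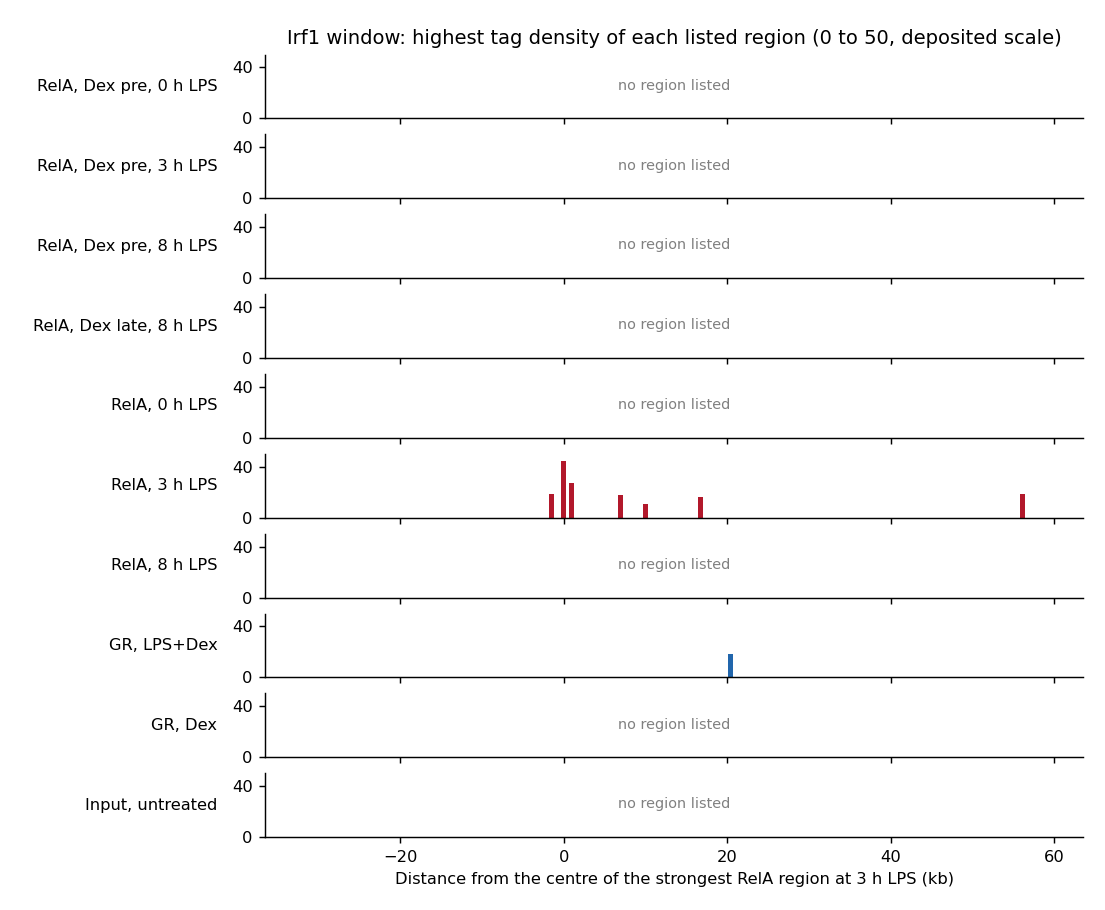
Map of the Irf1 window with 1 row per list; the x axis is the distance in kb from the centre of the strongest RelA region at 3 h of LPS, and each bar is 1 listed region whose height is its highest tag density on the deposited scale (bars are wider than the regions). The 7 RelA regions stand in the 3 h row, the 1 GR region in the LPS+Dex row lies between them, and the other 8 rows are empty.

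Across LPS time the 9 RelA regions of both loci were listed neither in resting cells nor at 8 h. Of all 4972 RelA regions at 3 h outside input, 0.744% met a region of the 0 h list, and 31.3% (Wilson 95% interval 30.0 to 32.6, counting error only) met a region of the 8 h list. The members' counts, 0 of 7 at Irf1 and 0 of 2 at Irf8, thus stood beside a background in which most 3 h regions were not called at 8 h either. A list gives no value for a place it does not call, so the level of RelA at these places at 0 h and 8 h is not known. The lowest score in the 8 h list was 10.9, above the 9.10 and 9.68 of 2 Irf1 regions and the 10.1 of 1 Irf8 region at 3 h.

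Among strong regions, absence at 8 h was uncommon, and the central Irf1 region was such a case. Of the 325 regions at 3 h with a density of at least 44.6, 291 were called at 8 h, a share of 89.5% (85.7 to 92.4), and the Irf1 region was among the 34 that were not. By score, 358 of the 401 regions at or above its 31.2 were called at 8 h. It was also 1 of the 1697 regions, 34.1% of the list, found at 3 h and in no other ChIP list, where it ranked 15th by density and 13th by score against a median density of 15.8. For the stronger Irf8 region the same count was 1018 of 1639, or 62.1% (59.7 to 64.4), called at 8 h among regions of its density or above. Absence at 8 h was thus more frequent among regions as strong as the Irf8 one than among those as strong as the Irf1 one.

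The next RelA region beyond the Irf1 window shows the other course. It lay 355 kb past the window, at 53995084 to 53995813 on chromosome 11, had a density of 40.8 at 3 h, close to that of the central Irf1 region, and was listed again at 8 h at 53995155 to 53995725 with 34.6. On the other side the nearest 3 h region was 1494 kb away. At Irf8 the nearest 3 h regions outside the window were 112 kb before it, at 123087962 to 123088461 with a density of 14.0, and 1104 kb after it, and the nearest 8 h regions lay 827 kb before and 1587 kb after.

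**Figure D2:**
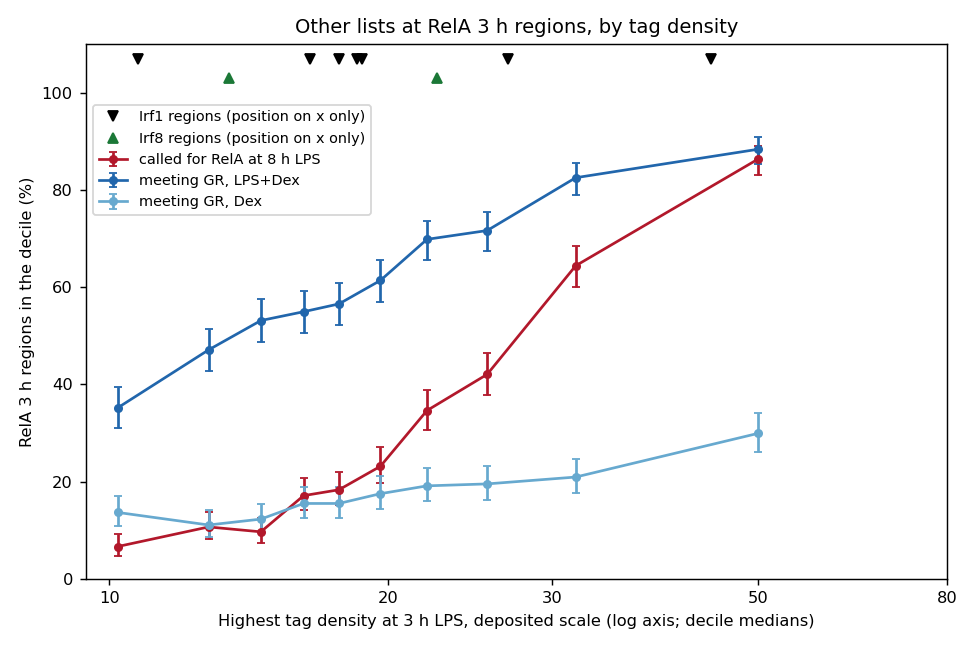
Shares of all RelA 3 h regions outside input (y axis, %) that were called for RelA at 8 h of LPS or met a GR region of LPS+Dex or of Dex, in 10 groups of rising highest tag density (x axis, log scale, at each group's median on the deposited scale); bars are Wilson 95% intervals. Triangles mark the densities of the 7 Irf1 and 2 Irf8 regions along the x axis, none of which was called at 8 h; in the highest group, which holds the central Irf1 region, 86.3% were.

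Dex was set against no Dex at each time, which asks whether the timing of the glucocorticoid alters RelA at these genes. With Dex given 3 h before LPS, 0 of the 9 RelA places were called at 3 h of LPS; all 9 were called without Dex, since that list defined them. Over the whole 3 h list, 0.241% of regions were called in the pretreated 3 h library, so the count of 0 at these loci is close to the share over the whole list. At 8 h neither pretreated, late-treated nor Dex-free cells had a RelA region at Irf1 or Irf8. Late Dex listed 4.24% of the 3 h regions and pretreatment with 8 h of LPS 0.0805%, and pretreatment without LPS listed 0.603%. With no RelA region at 8 h in any arm, the order of Dex and LPS could not be compared at these loci.

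With LPS and Dex, GR was listed at more places in the Irf8 window than in the shorter Irf1 window. The Irf8 window held 6 GR regions from cells with both agents and 1 from cells with Dex, while the Irf1 window held 1 with LPS and Dex and none with Dex. Per 100 kb this came to 3.53 GR regions of LPS and Dex at Irf8 and 1 at Irf1. With the genome cut into bins of 170 kb, 12796 bins held a GR region of LPS and Dex and 3073 held at least 6. The contrast between the 2 windows is thus a description and is not read as a departure from the background. In windows wider by 50 kb on each side the counts were 6 with LPS and Dex and 1 with Dex at Irf8, and 3 with LPS and Dex and 3 with Dex at Irf1, so the order of the loci turned for Dex. The single GR region at Irf1 lay at 53596658 to 53597211 on chromosome 11, with a density of 18.2, at the 79.9th percentile of its list, and a score of 14.4, at the 41.9th. It met no RelA region, and its centre was 3.68 kb from that of the nearest, the one at 53593120, and 20.4 kb from that of the strongest. None of the 7 Irf1 RelA regions met a GR region of either library, whereas 62.0% of all those listed at 3 h met a GR region of LPS and Dex and 17.5% met one of Dex. Among 3 h regions in the density group of the central Irf1 region, 88.4% (85.2 to 90.9) met GR of LPS and Dex. In the density groups of the other Irf1 regions the shares ran from 35.1% to 71.6%. The members at Irf1 are few and lie in 1 window, so their count is not read as a departure from the background.

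At Irf8 both RelA regions coincided with GR of LPS and Dex and 1 with GR of Dex. Over the whole 3 h list, 62.0% met GR of LPS and Dex and 17.5% met GR of Dex. In the density groups of the stronger and the weaker Irf8 region, 69.8% and 47.1% met GR of LPS and Dex. Most regions of the list met it too, so the 2 overlaps are not read as a trait of Irf8. The stronger, at 123209884, was overlapped by a GR region at 123209801 to 123210526 with a density of 34.8 and a score of 41.3, and their centres were 36 bp apart. It was also overlapped by the single Dex region, at 123209863 to 123210485, with a density of 18.5, a score of 20.4 and a centre 25.5 bp away. The weaker RelA region, at 123284072, was overlapped by a GR region of LPS and Dex at 123283982 to 123284516 with a density of 16.7 and a centre 62.5 bp away, and by none of Dex. At 8 h RelA was listed at 0 of these 2 places, beside 44.8% of the 3085 RelA regions at 3 h that met GR of LPS and Dex and 38.0% of the 856 that met both GR lists. The first of these places was the most widely shared of both loci, listed in 3 of the 9 ChIP libraries, and the second was listed in 2.

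The other 4 GR regions at Irf8 were listed with LPS and Dex alone. They lay at 123239891 to 123240362 with a density of 14.1, 123243817 to 123244297 with 14.8, 123249185 to 123249642 with 12.2, and 123289886 to 123290508 with 26.8. The first 3 formed a string with gaps of 3.46 and 4.89 kb, and the last lay 5.34 kb past the weaker RelA region. All 6 GR regions of LPS and Dex had a density above 10 and stood between the 70.4th and 92.7th percentile of density in their list. By score they stood at the 95.2nd, 28.3rd, 48.9th, 17.5th, 46.1st and 79.8th percentile in order of position.

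Of these 6 regions, 1 was also listed with Dex. Over all 51358 GR regions of LPS and Dex outside input the share was 37.4%, and over the 16366 of them with a density of at least 10, the class to which all 6 belong, it was 21.7%. Likewise 2 of the 6 met RelA at 3 h, beside 6.05% of all GR regions of LPS and Dex and 18.7% of those with a density of at least 10. None of the 6, nor the 1 at Irf1, met RelA at 8 h, beside 3.13% of all GR regions of LPS and Dex and 9.72% of those with a density of at least 10. With so few members these counts describe the locus and are not read as a departure from the background.

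At the place that both GR libraries shared, the density was 34.8 with LPS and Dex and 18.5 with Dex, a ratio of 1.88, or 0.91 on the log2 scale. The median log2 ratio over all 19188 regions of LPS and Dex that met a Dex region was 0.16, with quartiles of -0.32 and 0.51, so the Irf8 place stood at the 85.0th percentile. Among the 3559 of them with a density of at least 10 with LPS and Dex, a choice that favours high ratios, the median was 1.18. How the authors scaled densities between the GR libraries is not known, and with 1 library each the difference has no replicate check.

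**Figure D3:**
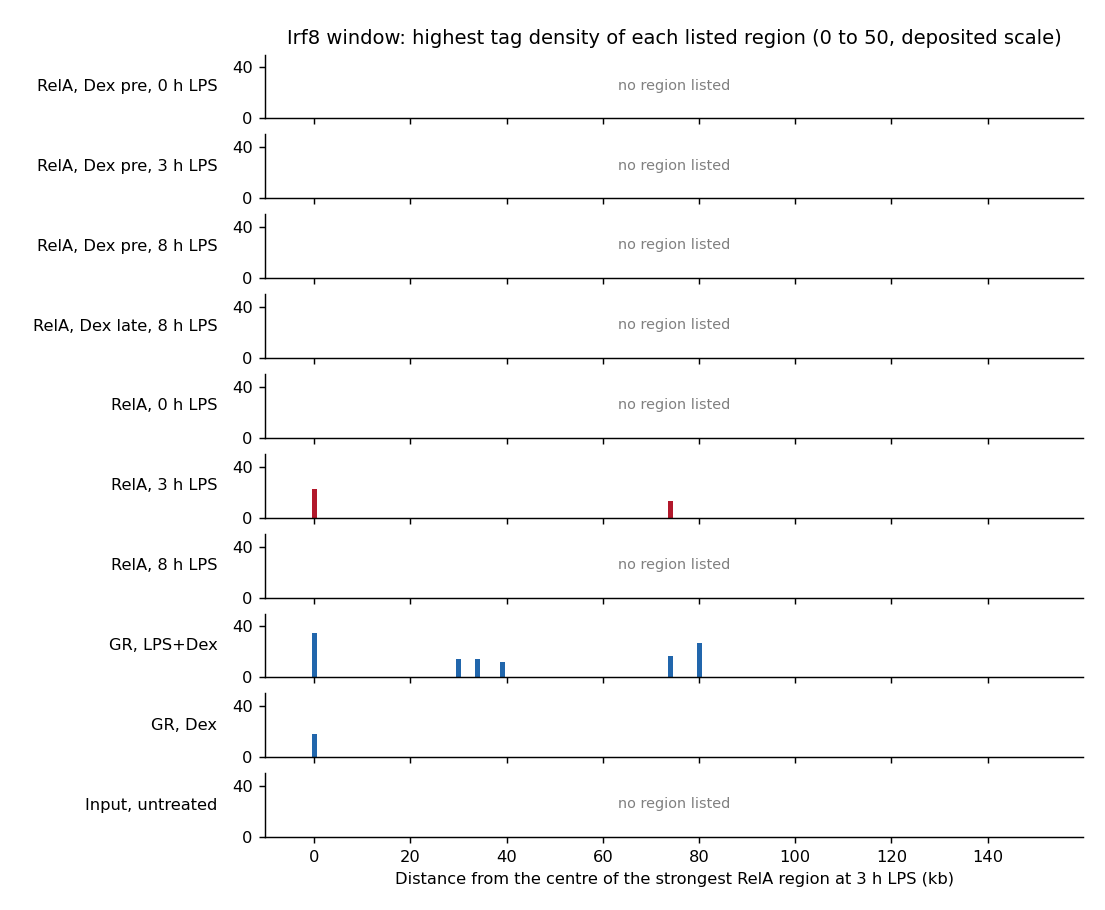
Map of the Irf8 window, drawn as for Irf1, with the distance in kb from the centre of the RelA region at 123209884 on the x axis and the highest tag density on the deposited scale as bar height. The 2 RelA regions at 3 h of LPS stand above GR regions of LPS+Dex, the 1 GR region of Dex stands at the first of them, and 4 GR regions of LPS+Dex stand alone.

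Outside the windows, the nearest GR regions of Dex at Irf1 lay 6.33 kb after the window with a density of 1.79 and 37.0 kb before it with 2.39, and those of LPS and Dex lay 41.8 kb after it with 6.68 and 35.0 kb before it with 4.68. The median density was 4.01 in the list of LPS and Dex and 2.99 in that of Dex, so the flanking regions of LPS and Dex lay above their list's median and those of Dex below it. At Irf8 the nearest GR regions of LPS and Dex lay 56.1 kb before the window, with a density of 13.7, and 332 kb after it, with 10.7. Inside the windows, the outermost regions were the RelA regions at 53574736 and 53632372 at Irf1, 34.7 and 7.17 kb from the window's ends, and the GR regions at 123209801 and 123289886 at Irf8, 9.80 and 79.5 kb from them.

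Beside other stretches of the genome with as many RelA regions at 3 h, the Irf1 window held few GR regions of LPS and Dex. The genome was divided into bins of 100 kb laid so that the Irf1 window was 1 of them. Of these bins, 3182 held a RelA region of the 3 h list and 22 held at least 7. In bins with no RelA region at 3 h, the most frequent count of GR regions of LPS and Dex was 1, in 5241 bins. The bounds used here, at least 7 RelA regions and at most 1 GR region, were the Irf1 window's own counts. Its standing among the bins is therefore partly set by them. Among those 22 bins the Irf1 window was the single one with no RelA region at 8 h and the single one with at most 1 GR region of LPS and Dex; the median of the 22 was 2.5 RelA regions at 8 h and 7 GR regions. This is a description of a window proposed with results of these lists in view, and it depended on where the bins began: moved by 20, 40, 60 and 80 kb, the bins with at least 7 RelA regions numbered 20, 16, 17 and 22, of which 1, 2, 0 and 0 had no RelA region at 8 h, and 1, 0, 1 and 0 had at most 1 GR region of LPS and Dex. After the moves by 40, 60 and 80 kb no bin at Irf1 reached 7, so the 2 bins without RelA at 8 h after the move by 40 kb, and the bin with little GR after the move by 60 kb, lay elsewhere. The Irf1 window also reached 7 only because 2 regions 73 bp apart were counted singly. Merged within 500 bp they would count as 1 and leave the window below 7. The bins were not recounted with merged regions.

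The Irf8 window was common in this respect. Of the bins of 170 kb laid in the same way, 1127 held at least 2 RelA regions at 3 h, their median number of GR regions of LPS and Dex was 6, equal to that of the Irf8 window, and 437 of them held no RelA region at 8 h.

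**Figure D4:**
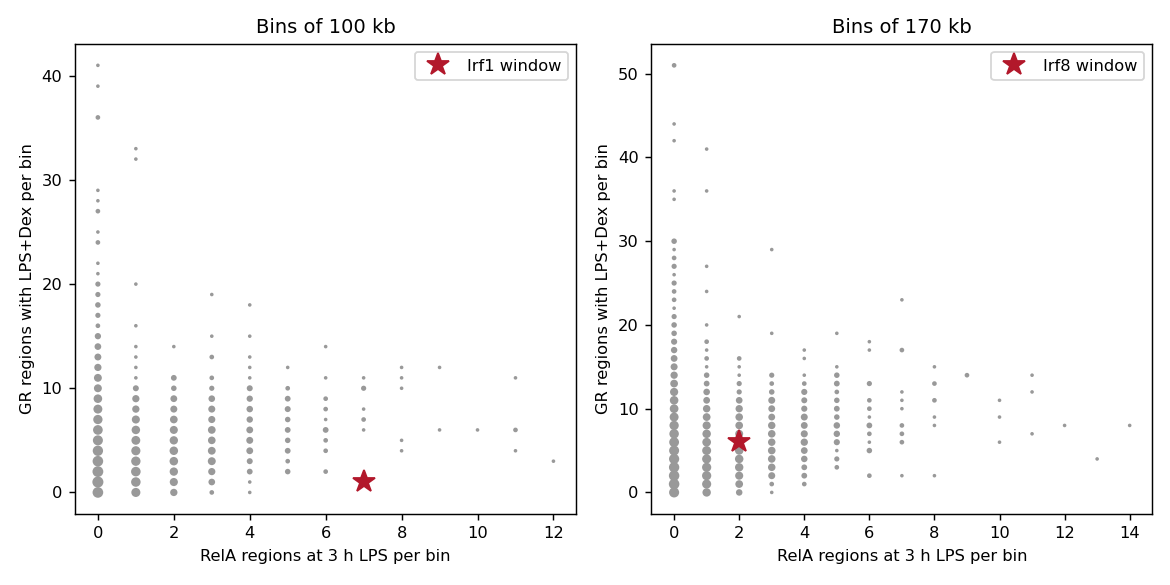
Number of RelA regions at 3 h of LPS (x axis) against the number of GR regions with LPS+Dex (y axis) in bins of 100 kb (left) and 170 kb (right) over the genome; each grey point is a pair of counts, larger where more bins share it, and the star is the window named in the legend. The Irf1 window, with 7 RelA regions and 1 GR region, lies below the other bins with at least 7 RelA regions, and the Irf8 window, with 2 and 6, lies among many others.

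Regions elsewhere with the most similar pattern were sought by the set of lists that called them and by density. The pattern of the central Irf1 region, 3 h of LPS alone, was shared by 1696 other regions, and those nearest in density were at 7612260 to 7613121 on chromosome 3 with 44.3, at 134139599 to 134140347 on chromosome 6 with 45.1, and at 122328344 to 122329087 on chromosome 10 with 43.5. The stronger Irf8 region shared its pattern, RelA at 3 h with both GR libraries, with 524 others. Nearest to it over these 3 lists was a region at 114122310 to 114122971 on chromosome 5, with densities of 20.7 for RelA, 37.8 for GR with LPS and Dex and 16.5 for GR with Dex. Next were 59015756 to 59016718 on chromosome 3, with 23.2 for RelA, 37.6 for GR with LPS and Dex and 15.5 for GR with Dex, and 45961931 to 45962548 on chromosome 4, with 25.8 for RelA, 33.0 for GR with LPS and Dex and 22.0 for GR with Dex.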

How the data were processed

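The data were 10 lists of enriched regions, 1 per library, as deposited by the authors. CASAVA and the build mm9 are named in the submitters' processing notes; the caller of the regions, its threshold, duplicate filters and any use of input are not given in the sources used here. Per the file headers each region has a highest and a mean tag density, a signal whose scaling is not stated. The deposited score is a z-score and the deposited p-value belongs to the same region; neither was recomputed, and the p-values were not used. Positions are printed as deposited. Members and comparisons were chosen with earlier results of these data known, and the motifs after the promoter sequences had been seen.

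An overlap meant at least 1 shared bp, and regions overlapping input were left out of the shares. Places named singly were those in 2 or more lists or with a density of at least 10, which took in every member. The pattern most alike was the smallest Euclidean distance in log2 density among regions called in the same lists. Python 3.11.15 with pandas 2.3.3 and scipy 1.17.1 was used, and the overlap steps were tested on simulated regions. Alternatives were an overlap of 50% of both regions, centres within 250 bp, a score of at least 11, the higher-scoring 50% of each list, GR densities of at least 10, windows wider by 50 kb on each side, merging within 500 bp, input-overlapping regions kept, and mean density, score or centring for the GR ratio. Bins moved along the genome were added after seeing the data. Only GRCm38.p6 gene tables were at hand, so other interferon regulatory factor genes were not analysed here.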

Additional observations from a re-analysis of the deposited data

How the results depend on the processing

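Of 121 recomputed values, 111 kept their main value or stayed within 1.5 times of it, and none reversed. Many of them could not move, so these numbers do not measure how robust the results are. No input region lay in either window, and a stricter rule cannot raise a count of 0. Another overlap rule, keeping input-overlapping regions, and merging within 500 bp changed no count in the windows by more than 1.5 times. Merging was not applied to the counts of bins. The higher-scoring 50% of each list left 2 of the 7 RelA regions at 3 h and 0 of the 1 GR region of LPS and Dex at Irf1. At Irf8 it left 1 of the 2 RelA regions and 2 of the 6 GR regions of LPS and Dex. This setting drops the lower-scoring part of each list, and most members lay there. A score of at least 11 left 1 of the 2 RelA regions at Irf8. Windows wider by 50 kb on each side held 3 GR regions of LPS and Dex and 3 of Dex at Irf1, and 6 and 1 at Irf8 as before. The number of bins with at least 7 RelA regions and none at 8 h was 1, and became 2 with bins moved by 40 kb and 0 with bins moved by 60 or 80 kb, alternatives chosen after seeing the data. The log2 ratio of GR at Irf8 was 0.91, and 0.97 by mean density, 1.01 by score and 0.75 after centring on all shared regions. Density ratios between RelA lists gave no value at these loci, since no member was in more than 1 RelA list. No paired analysis was possible because each condition had 1 library. An uncalled place has no value, so weak binding there was not detectable.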
